A study of Mus musculus with 6 samples.

Results

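Myelin structural genes are the genes for proteins that build the sheath which oligodendrocytes wrap around axons of the brain. The 9 genes described here, Mbp, Mobp, Mal, Cldn11, Mag, Mog, Opalin, Cnp and Ermn, were chosen by name, and each matched 1 of the 26554 features in every library. All 9 also passed the filter on low counts. Poly(A) RNA was sequenced from VPL/VPM tissue, the ventral posterior nuclei of the thalamus that relay touch and pain, at 14 days after its right side was injected. The collagenase group (3 libraries) received 10 nL with 0.01 U of type IV collagenase, a matrix-digesting enzyme used to make a small bleed, and the saline group (3 libraries) received 10 nL of saline. All mice were wild type (C57) and all had an injection, so no library shows uninjected tissue. Whether each library is 1 animal or a pool is not stated in the labels, so p-values measure only the spread between these samples, which may be technical.

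Myelin forms when an oligodendrocyte spirals its membrane around an axon and squeezes out the cytoplasm between the layers. Basic proteins such as the Mbp product hold the inner faces of the membrane together, tetraspan proteins such as the Mal product sit in the compact membrane, and Cldn11 forms the tight junctions that seal it. Mag lies on the innermost layer that faces the axon, Mog on the outermost surface, and Cnp in the channels that stay filled with cytoplasm. SOX10 and MYRF are transcription factors that switch these genes on as oligodendrocytes mature.

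To show what these genes share just before their starts, the windows were read from RefSeq's mouse promoter table (GRCm38.p6). It holds 10 windows for 8 of the 9 genes, all but Mbp. The search covered up to 250 bases before the start, on both strands, for 7 short motifs. SOX proteins bind cores such as ACAAAG, and a further core searched was ACAATG. The MYRF motif was searched as CTGGCAC, and in a second form as CTGGTAC. E-boxes were searched as CAGCTG, and in a second form as CATATG, and the TATA box in the single form TATAAA. The 4 windows printed are those of Mobp, which holds the most matches, of Mog and Cldn11, the only members whose scaled counts did not overlap between the groups, and of Opalin, one of the members at its highest in saline replicate 3. Each is written 5′ to 3′ on the strand of its gene. Capitals mark a match to any of these motifs on either strand, and no matches overlapped one another.
Mobp, chr9:120149492-120149706, plus strand: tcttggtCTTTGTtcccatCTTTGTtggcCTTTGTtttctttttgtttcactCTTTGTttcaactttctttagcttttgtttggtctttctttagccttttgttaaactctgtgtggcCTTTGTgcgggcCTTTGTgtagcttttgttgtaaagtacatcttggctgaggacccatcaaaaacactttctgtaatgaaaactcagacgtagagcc
Mog, chr17:37023399-37023648, minus strand: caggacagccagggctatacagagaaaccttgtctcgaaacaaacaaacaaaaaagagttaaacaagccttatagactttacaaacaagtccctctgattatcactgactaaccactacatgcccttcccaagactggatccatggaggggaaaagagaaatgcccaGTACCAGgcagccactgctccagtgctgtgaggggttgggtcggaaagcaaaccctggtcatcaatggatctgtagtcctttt
Cldn11, chr3:31149670-31149919, plus strand: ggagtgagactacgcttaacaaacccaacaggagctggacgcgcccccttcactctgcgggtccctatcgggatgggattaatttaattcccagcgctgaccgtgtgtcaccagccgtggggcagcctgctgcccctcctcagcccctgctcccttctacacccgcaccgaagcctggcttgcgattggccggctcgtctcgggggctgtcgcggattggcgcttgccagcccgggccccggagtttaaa
Opalin, chr19:41077114-41077363, minus strand: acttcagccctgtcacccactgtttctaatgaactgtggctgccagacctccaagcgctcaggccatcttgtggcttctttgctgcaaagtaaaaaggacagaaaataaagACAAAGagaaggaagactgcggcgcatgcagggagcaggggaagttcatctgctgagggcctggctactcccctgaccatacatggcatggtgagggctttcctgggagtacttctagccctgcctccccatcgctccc

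ACAAAG was found in the windows of Mobp, Cnp, Mag and Opalin, which is 4 of 8 genes. By window it was in 5 of 10, and in 16.5% of 32851 windows in the whole table. Mag has more than 1 window, and those with the match overlap and hold the same site, which is therefore counted more than once. Mobp held 6 copies, all as CTTTGT on the printed strand, and it was the only window in the table with 6 or more. The printed Mobp window has 39.1% G and C, and a share of 0.137% of all windows held 3 or more copies. ACAATG was found in the Ermn window and in 10.7% of all windows. CTGGCAC was found for Cnp and Mag and in 4.19% of all windows, and CTGGTAC for Mog alone among the members and in 1.83%. Neither E-box form was found in the members' windows, although CAGCTG was in 13.0% of all windows and the form CATATG in 3.46%. No member's window held TATAAA either, which was in 12.4% of all windows. The Mal and Cldn11 windows held none of the 7 motifs. These are matches of letters and were not tied to the expression values below.

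The libraries held 33603076 to 44815451 counts. All 10 markers of thalamic relay neurons passed the filter, and they summed to 2809 to 3289 CPM after collagenase and 2796 to 4341 CPM after saline, where CPM is the depth-scaled count. Libraries of both groups differed in markers of neighbouring tissue. Summed over 6 genes of choroid plexus and ependyma, both libraries numbered 3 were low, with 36.3 CPM (collagenase replicate 3) and 39.8 CPM (saline replicate 3), against 916 to 2547 CPM in the other 4 libraries. Summed over 6 genes of striatum, saline replicate 3 had 650.6 CPM and the other 5 libraries had 92.5 to 222 CPM. Summed over 6 genes of habenula, the libraries had 121, 58.3 and 185 CPM after collagenase and 17.5, 21.6 and 136 CPM after saline, so that saline replicates 1 and 2 were the lowest. Those 2 libraries were also the highest for Neurod6, a gene of hippocampal and cortical neurons, with 23.0 and 39.8 CPM against 0.176 to 3.65 CPM in the other 4. Summed over all 8 hippocampal and cortical genes, the level was 160.0 to 192.6 CPM after collagenase and 196.6 to 241.0 CPM after saline. Most of that sum came from Prox1 and Wfs1, whose order over the saline libraries was not that of Neurod6. Both were highest in saline replicate 3, at 142 and 83.2 CPM, where Neurod6 was lowest. Both were lowest in saline replicate 2, at 75.6 and 35.7 CPM, where Neurod6 was highest. The part of such differences in the members' values was not tested.

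After collagenase, none of the 9 myelin genes passed the test in either direction. Counts were scaled to CPM with TMM factors and tested with edgeR's quasi-likelihood F-test, in which a gene passed at a Benjamini-Hochberg adjusted p under 0.05 over all 17240 tested features. In that test 2.12% of features were higher, 0.29% were lower and 2.41% passed in either direction. DESeq2 and limma on log2(FPKM + 1) likewise called 0 of the 9. The members' log2 fold changes, collagenase over saline, ran from -0.29 for Mog to 0.0026 for Mbp, with a median of -0.12, and the median of all tested features was -0.02. The 95% intervals of all 9 members lay between -0.55 and 0.35, inside a 2-fold change either way. Of the members 8 of 9 had a negative log2 fold change, as had 53.4% of all tested features. In bulk tissue, fewer oligodendrocytes and less RNA per oligodendrocyte cannot be told apart.

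**Figure D1:**
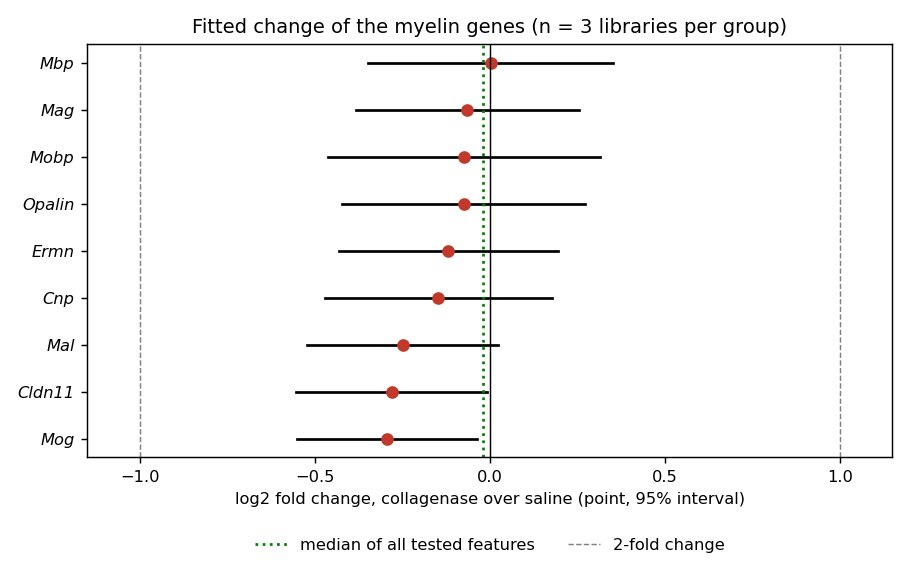
Log2 fold change (collagenase over saline) of each myelin gene from edgeR, with its 95% interval; the green dotted line is the median of all tested features and the dashed lines mark a 2-fold change. The intervals of the 9 genes lie between -0.55 and 0.35.

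Among the proteins of compact myelin, Mbp, which glues the cytoplasmic faces of the membrane, had 7340, 8038 and 6906 CPM in collagenase replicates 1, 2 and 3, against 6777, 6737 and 8730 CPM in saline replicates 1, 2 and 3. The groups overlapped, and the lowest and the highest library were both saline. Mbp averaged 7428 ± 571 CPM after collagenase and 7414 ± 1139 CPM after saline (SD, n = 3 each), and its log2 fold change was 0.0026 (standard error, SE, 0.15; 95% interval -0.35 to 0.35; edgeR adjusted p = 0.998). Mobp, a smaller basic protein of the same layers, had 2230, 2427 and 2061 CPM after collagenase and 2120, 1992 and 2955 CPM after saline. Its groups overlapped in the same way, with saline replicate 3 above the other 5 libraries, and its log2 fold change was -0.07 (SE 0.17, interval -0.46 to 0.32, edgeR adjusted p = 0.928). Mal, a tetraspan protein involved in sorting lipids and proteins to the membrane, had 608.2, 541.2 and 499.8 CPM after collagenase and 683.5, 588.8 and 688.6 CPM after saline. Only collagenase replicate 1 reached into the saline range, and the log2 fold change of Mal was -0.25 (SE 0.12, interval -0.52 to 0.02, edgeR adjusted p = 0.468).

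Cldn11 and Mog were the members with the lowest values relative to saline. Cldn11, the claudin of the tight junctions between myelin layers, had 288.0, 264.4 and 223.4 CPM in collagenase replicates 1, 2 and 3, against 334.8, 298.4 and 309.4 CPM in saline replicates 1, 2 and 3. Every collagenase library was below every saline library. The ratio of collagenase to saline was 0.823, with a 95% interval of 0.681 to 0.995, and the edgeR p was 0.0455 before and 0.399 after adjustment. Mog, an immunoglobulin-like protein of the outermost surface and an autoantigen in demyelinating disease, had 152.0, 150.6 and 128.5 CPM after collagenase and 194.6, 168.3 and 165.5 CPM after saline. Here too no collagenase library reached the lowest saline library. The ratio for Mog was 0.816, with a 95% interval of 0.683 to 0.975, and the edgeR p was 0.0300 before and 0.334 after adjustment.

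Neither gene passed. Groups did not overlap for 2 of 9 members, against 17.6% of all tested features, or 7.5% counting only those lower after collagenase, as both were. An unadjusted p under 0.05 was found for the same 2 members, against 12% of all tested features, or 4.6% counting only the lower ones. The separation also depended on the scaling. In the authors' FPKM values, Mog had 91.0, 84.9 and 72.0 FPKM after collagenase and 107.4, 94.5 and 82.9 FPKM after saline, so that 2 collagenase libraries were above saline replicate 3. Cldn11 had 157.1, 135.8 and 114.1 FPKM after collagenase and 168.4, 152.6 and 141.3 FPKM after saline, and again the groups overlapped.

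**Figure D2:**
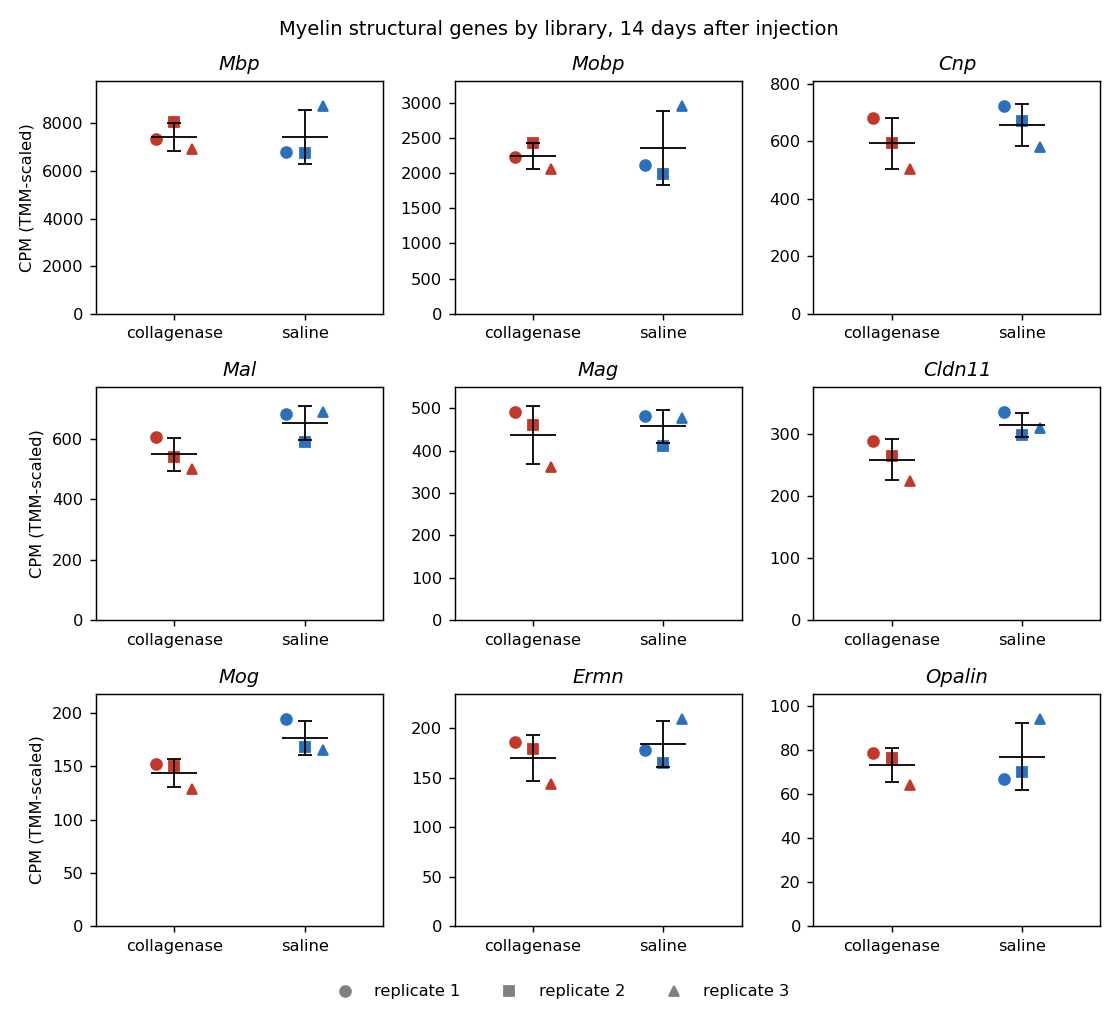
TMM-scaled CPM of each myelin gene in the 3 collagenase (left, red) and 3 saline (right, blue) libraries, with replicates 1, 2 and 3 as circles, squares and triangles; horizontal lines are means and bars the SD (n = 3 each). The groups are apart for Cldn11 and Mog and overlap for the other 7 genes.

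The other surface proteins overlapped between the groups. Mag, a sialic acid-binding adhesion protein on the layer facing the axon, had 491.1, 460.6 and 360.7 CPM after collagenase and 482.7, 412.1 and 477.8 CPM after saline. The highest and the lowest of its 6 libraries were both collagenase, and its log2 fold change was -0.06 (SE 0.14, interval -0.38 to 0.25, edgeR adjusted p = 0.919). Opalin, a transmembrane glycoprotein of oligodendrocytes, had 78.7, 76.3 and 64.2 CPM after collagenase and 66.9, 69.8 and 94.3 CPM after saline. 2 of its collagenase libraries were above 2 of its saline libraries, and its log2 fold change was -0.08 (SE 0.15, interval -0.42 to 0.27, edgeR adjusted p = 0.912).

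For the proteins of the cytoplasm the groups overlapped as well. Cnp, a phosphodiesterase that keeps those channels open, had 680.7, 592.8 and 505.0 CPM after collagenase and 722.4, 668.8 and 578.1 CPM after saline. In each group replicate 3 was the lowest, and the groups overlapped. The log2 fold change of Cnp was -0.15 (SE 0.14, interval -0.47 to 0.18, edgeR adjusted p = 0.774). Ermn, an actin-binding protein of late oligodendrocyte differentiation, had 186.5, 179.2 and 143.3 CPM after collagenase and 177.7, 165.1 and 209.8 CPM after saline. Saline replicate 3 was the highest library and collagenase replicate 3 the lowest, and the log2 fold change was -0.12 (SE 0.14, interval -0.43 to 0.19, edgeR adjusted p = 0.820).

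Cnp lies on chromosome 11 (100574904 to 100591729, plus strand, GRCm38, GENCODE M21) and overlaps Dnajc7 on the opposite strand. Ermn lies on chromosome 2 (58045113 to 58052864, minus strand) and overlaps Galnt5, and Mog lies on chromosome 17 (37010743 to 37023398, minus strand) and overlaps Gm22388. Mbp spans chromosome 18 from 82475146 to 82585637 on the plus strand and overlaps the pseudogene Rpl21-ps8. No step that marks the strand is given for the libraries, so reads from the stretches that these 4 genes share with their partners cannot be told apart, and how many reads fall there was not measured. Mobp (chromosome 9, 120149707 to 120181484, plus strand) overlaps Gm38642 on its own strand. Strand could not tell their shared reads apart either, and how many there are was not measured. The other 4 overlap no other annotated gene. Those are Mag (chromosome 7, 30899176 to 30914873, minus strand), Cldn11 (chromosome 3, 31149920 to 31164324, plus strand), Mal (chromosome 2, 127633226 to 127656695, minus strand) and Opalin (chromosome 19, 41061710 to 41077113, minus strand).

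Levels of different genes were compared per length, in the authors' FPKM, which divides fragment counts by transcript length and by library depth. Over all 6 libraries Mbp averaged 3584 ± 306 FPKM and Mobp 829.2 ± 95.04 FPKM (SD, n = 6), and neither range met that of another member. Cnp followed at 251.7 ± 39.2, Mal at 204.7 ± 22.4, Mag at 194.4 ± 29.8 and Cldn11 at 144.9 ± 19.0 FPKM (SD, n = 6). The ranges of these neighbours overlapped: Cnp was above Mal in 5 of 6 libraries, Mal above Mag in 4 of 6 and Mag above Cldn11 in 6 of 6. Mog, at 88.8 ± 11.97 FPKM, was below every value of Cldn11 and above every value of Ermn. Ermn averaged 46.0 ± 5.09 and Opalin 38.6 ± 4.61 FPKM (SD, n = 6), with overlapping ranges but Ermn above Opalin in each of the 6 libraries. By group, Mbp averaged 3713 ± 305 FPKM after collagenase and 3454 ± 302 FPKM after saline, and Opalin averaged 39.0 ± 5.24 FPKM after collagenase and 38.1 ± 5.02 FPKM after saline (SD, n = 3 each).

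**Figure D3:**
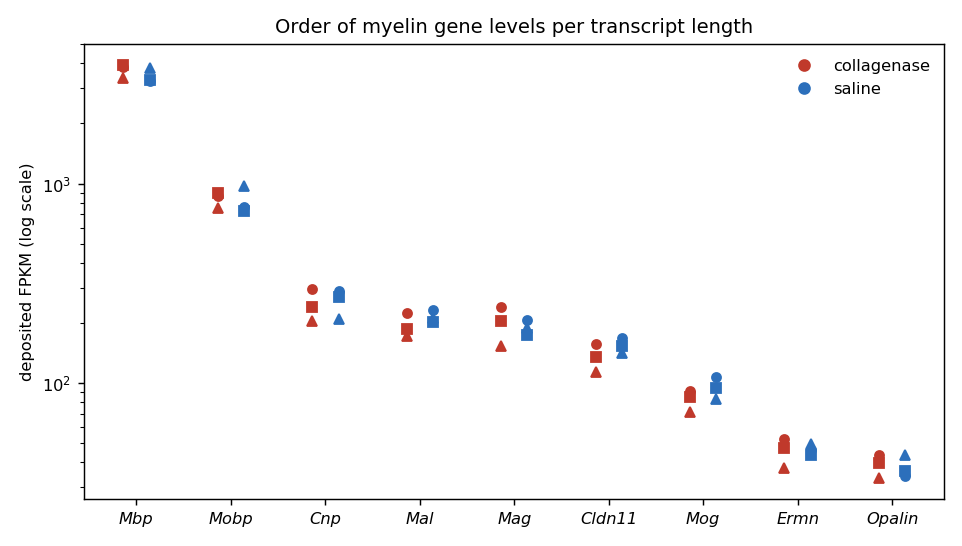
Deposited FPKM of the 9 myelin genes per library on a log axis, in order of their mean, with collagenase libraries in red and left, saline libraries in blue and right, and replicates 1, 2 and 3 as circles, squares and triangles. Mbp is the highest at 3584 FPKM on average and Opalin the lowest at 38.6 FPKM.

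Together the 9 genes made up 1.28%, 1.30% and 1.09% of all counts in collagenase replicates 1, 2 and 3, against 1.16%, 1.14% and 1.28% in saline replicates 1, 2 and 3. The groups overlapped, at means of 1.22% ± 0.115 after collagenase and 1.19% ± 0.0753 after saline (SD, n = 3 each). Mbp alone gave 60.9%, 63.1% and 63.4% of the members' counts after collagenase and 58.6%, 60.7% and 61.4% after saline, and these also overlapped. The FPKM ratio of Mbp to Mobp, both basic proteins of compact myelin, was 4.40, 4.41 and 4.46 after collagenase and 4.29, 4.53 and 3.93 after saline. The ratio of Mbp to Mog spread more, at 42.1, 46.4 and 46.8 after collagenase and 30.4, 34.9 and 45.8 after saline. Saline replicate 3 was the library that reached into the collagenase range. Relative to the mean log2 CPM of 12 oligodendrocyte transcription factors, the mean log2 CPM of the members was 3.54 ± 0.05 higher in collagenase libraries and 3.58 ± 0.07 higher in saline libraries (SD, n = 3 each).

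Both libraries numbered 3 lay at the ends of the range for most members. Collagenase replicate 3 was the lowest collagenase library for 9 of 9 members and the lowest of all 6 libraries for 7 of them, the exceptions being Mbp and Mobp. Saline replicate 3 was the highest of all 6 libraries for Mbp, Mobp, Mal, Ermn and Opalin, and above the gene's mean for 8 of 9 members, Cnp being the exception.

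**Figure D4:**
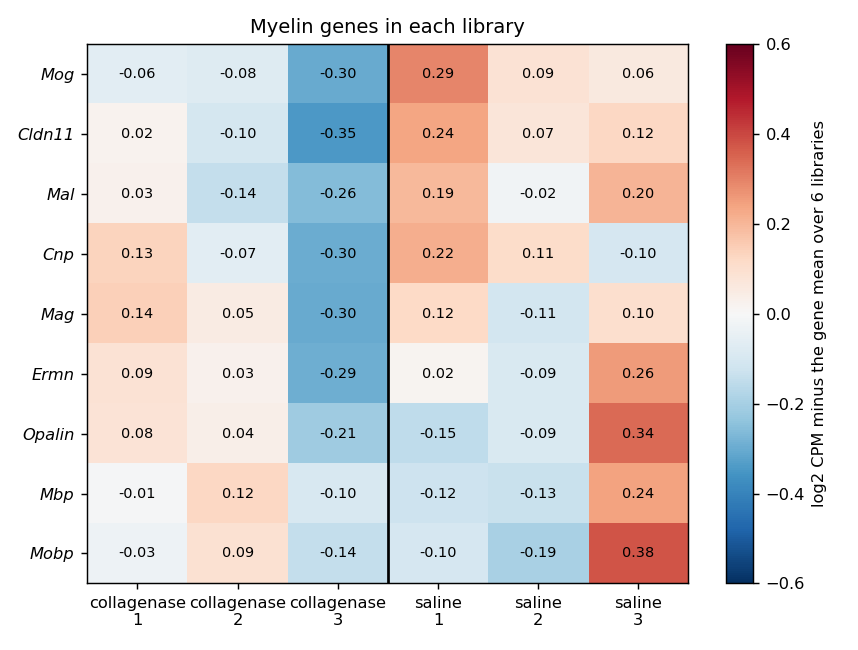
Each myelin gene's log2 CPM minus its own mean over the 6 libraries, with collagenase libraries left and saline libraries right. Collagenase replicate 3 is below the mean for all 9 genes and saline replicate 3 above it for 8.

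Without both libraries numbered 3, the median log2 fold change of the members was 0.10 and again 0 of 9 passed in edgeR. Mbp then had 0.19, Mobp 0.19, Opalin 0.19, Ermn 0.10 and Mag 0.10 on the log2 scale, while Mog at -0.26, Cldn11 at -0.19, Mal at -0.14 and Cnp at -0.12 stayed negative. This setting was chosen after the data were seen, and the 4 libraries left in it still differed by group in neighbouring tissue: the habenular genes had a median of 2.24, with 2 of 6 higher, and the hippocampal and cortical genes a median of -0.996, with 1 of 8 lower (edgeR). The sign for Mobp, Mag, Ermn and Opalin thus changed without those libraries, and Mbp ran from -0.06 to 0.13 with each library left out. On the log2(FPKM + 1) scale Mag, Mobp and Opalin were positive, at 0.05, 0.04 and 0.03, but the median of all tested features was also positive there, at 0.06. Mog, Cldn11, Mal and Cnp were negative under all 18 alternatives tried, and no member passed under any, the lowest adjusted p being 0.125 for Mog without saline replicate 3.

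Other genes of the sheath did not pass in edgeR either. Of 29 further genes for sheath proteins, 0 rose and 0 fell in edgeR, 2 had an unadjusted p under 0.05, and the median log2 fold change was -0.11. Among the most abundant were Tubb4a, a tubulin enriched in oligodendrocytes, with a log2 fold change of -0.21, and Plekhb1, a membrane adaptor, with -0.04. Cd9, a tetraspanin of myelin that microglia also express, averaged 94.9 ± 21.6 CPM after collagenase and 61.2 ± 9.91 CPM after saline (SD, n = 3 each) without overlap. It did not pass in edgeR (adjusted p = 0.171), but it was the 1 gene of this list that passed in DESeq2 (adjusted p = 0.0323). DESeq2 called 616 of the 17240 tested features higher and 197 lower. Groups did not overlap for 3 of the 29 genes, Cd9, Gjc3 and Tmem88b, against 17.6% of all tested features. Gjc3 and Tmem88b were lower after collagenase, at -0.35 and -0.22, and Gjc3 had an unadjusted edgeR p of 0.0498 (adjusted p = 0.414).

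Of 22 genes for enzymes and secreted proteins of mature oligodendrocytes, 0 rose and 0 fell in edgeR, 2 had an unadjusted p under 0.05, and the median was -0.06. The 3 most abundant were Trf, the iron carrier transferrin, with a log2 fold change of -0.02, Enpp2, the lysophospholipase autotaxin, which choroid plexus also makes, with -0.03 (SE 0.59, interval -1.48 to 1.41, and 276 to 1200 CPM over the 6 libraries), and Ptgds, a prostaglandin D synthase that meninges and choroid plexus also make, with 0.83 (SE 0.35, edgeR adjusted p = 0.413). Apod, a lipid-carrying apolipoprotein, averaged 505.8 ± 48.1 CPM after collagenase and 365.6 ± 57.4 CPM after saline (SD, n = 3 each), with no overlap and a log2 fold change of 0.47. Its adjusted p was 0.178 in edgeR, 0.0348 in DESeq2 and 0.0363 in limma on log2(FPKM + 1). Of all 17240 tested features, DESeq2 called 616 higher and 197 lower, and limma called 299 higher and 24 lower. Of 12 transcription factors of the lineage, 0 rose and 0 fell in edgeR or DESeq2, 2 had an unadjusted p under 0.05 in each, and the edgeR median was -0.09. In edgeR those 2 were St18 and Olig2, with log2 fold changes of -0.50 and -0.21. Groups did not overlap for Olig1, Olig2 and St18, 3 of the 12, and all 3 were lower after collagenase. Such lower features without overlap were 7.5% of all tested features. In FPKM the groups overlapped for each of these 3 genes. The log2 fold change was negative for 9 of the 12 and positive for 3. The 3 most abundant of the 12 were Olig1, with 320.6 ± 19.2 CPM after collagenase and 359.6 ± 9.20 CPM after saline, Myrf, with 134 ± 24.5 CPM after collagenase and 138 ± 23.1 CPM after saline, and Sox10, with 101 ± 3.94 CPM after collagenase and 111 ± 28.2 CPM after saline (SD, n = 3 each). Of 14 tested genes of precursors and newly formed oligodendrocytes, 0 passed in edgeR or DESeq2, 1 had an unadjusted p under 0.05 in each, and the edgeR median was 0.03.

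**Figure D5:**
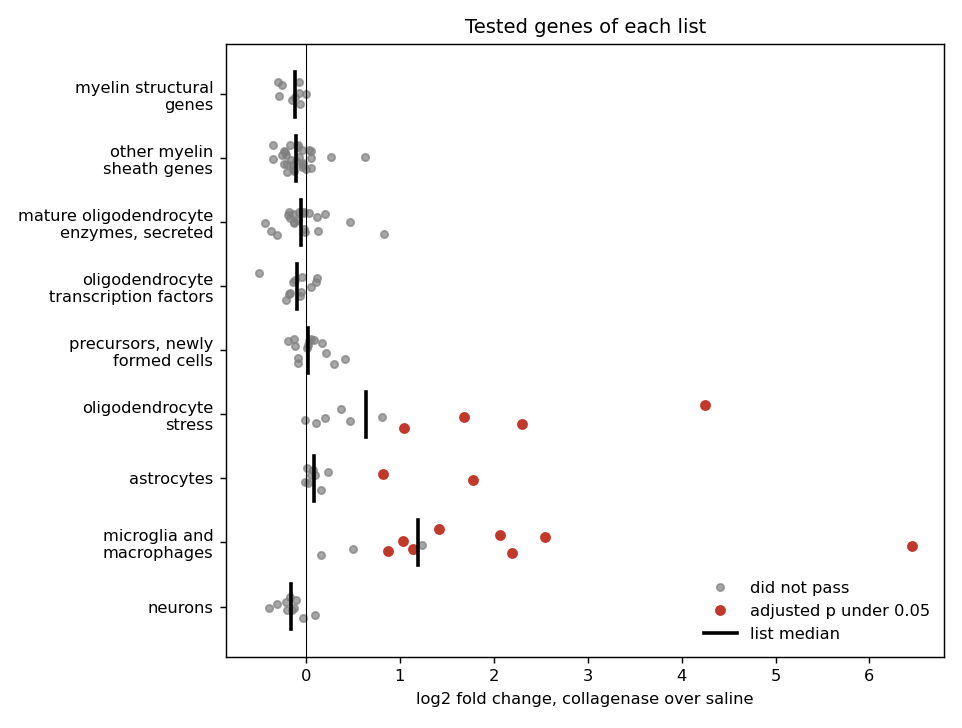
Log2 fold changes (collagenase over saline, edgeR) of the genes of each list of oligodendrocyte and other markers, 1 point a gene, with red points for genes at an adjusted p under 0.05 and a bar at the median of the list. The median of the 9 myelin genes was -0.12, that of the 29 other sheath genes -0.11 and that of the microglial list 1.19.

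Of 10 genes of a described oligodendrocyte stress response, several of which other glia express as well, 4 rose, 0 fell and 6 did not pass in edgeR. Serpina3n, a protease inhibitor also made by reactive astrocytes, had 346.4, 311.0 and 310.4 CPM after collagenase and 16.7, 23.4 and 11.0 CPM after saline, a log2 fold change of 4.25 (SE 0.26, edgeR adjusted p = 0.000595). The groups were far apart for this gene. The other 3 that rose were the complement gene C4b, with a log2 fold change of 2.30, and the class I antigen presentation genes H2-D1, with 1.69, and B2m, with 1.04. The 6 that did not pass were Apod and, with log2 fold changes beside them, Klk6 (-0.0039), Cdkn1a (0.11), Il33 (0.20), Steap3 (0.37) and Socs3 (0.81), with edgeR adjusted p from 0.178 to 0.996.

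The lists of other cells give the setting for the members' values. Of 12 microglial and macrophage genes 8 rose and 0 fell, and their summed level was 700.2 to 1073 CPM after collagenase and 316.7 to 349.9 CPM after saline. Of 10 astrocyte genes 2 rose, Gfap and Aqp4, and 0 fell. The 10 general neuronal genes summed to 5834 to 6885 CPM after collagenase and 6869 to 8574 CPM after saline, and 0 of them passed in edgeR or DESeq2, with 1 at an unadjusted p under 0.05 in each. The part of these shifts in the members' values was not tested. Of 6 Schwann cell genes, which would mark peripheral myelin, 4 passed the filter on low counts, 0 passed the test in edgeR or DESeq2, with 0 at an unadjusted p under 0.05 in each, and Pmp2 had 0 counts in all 6 libraries.

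The 8 genes outside the members whose log2 CPM over the 6 libraries ran most closely with the members' mean were Setbp1, Hist1h4i, Aldh18a1, Trak2, Pwwp2a, Dusp4, Pex11g and Ctnnd1, with Pearson r from 0.977 to 0.994. Trak2, which links mitochondria to motor proteins, was the most abundant, with 208.4, 192.5 and 149.1 CPM after collagenase and 217.0, 188.5 and 223.7 CPM after saline. Like Mal, Ermn and Opalin, it was lowest in collagenase replicate 3 and highest in saline replicate 3. Among the members themselves r with that mean ran from 0.546 for Cnp to 0.964 for Ermn. These values describe 6 libraries that share their depth scaling. Those of the 8 genes are the highest of a search over the tested features, without new loci and predicted genes.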

How the data were processed

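Poly(A) RNA of 6 VPL/VPM libraries was measured, 3 after collagenase and 3 after saline, grouped by sample title. Per the file headers, the authors deposited a raw read count and an FPKM value for each of 26554 features. Tools listed in the submitters' processing notes, without roles, are HISAT2 2.2.1, StringTie, FastQC and DESeq2, with the build GRCm38. Total counts were 33603076 to 44815451 per library, with TMM factors from 0.898 to 1.063. Symbols came from a reference table by Ensembl identifier, and positions from GENCODE M21. Spilled annotation lines (10 to 30 per file) were skipped.

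Counts were filtered (filterByExpr), TMM-scaled and tested with the robust quasi-likelihood F-test of edgeR 4.0.16 (R 4.3.3), two-sided, with Benjamini-Hochberg adjustment over 17240 features and a threshold of 0.05. Alternatives were other scalings and filters, DESeq2 1.42.0, limma 3.58.1 on log2 FPKM with pseudocounts of 1 and 0.1, a replicate block, each library left out, and both libraries numbered 3 left out.

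The members and lists were chosen with earlier results of these data known. Named genes are the 9 members, any gene of the sheath, mature oligodendrocyte and transcription factor lists that passed (otherwise the 3 most abundant), and the 8 most like the members over libraries, and a few of the genes so named are left out here. Cd9, Gjc3, Tmem88b, Apod, Padi2, St18, Olig2, the stress and marker genes were named after their values were seen. Tmem2, on the precursor list, was matched to no feature under that symbol.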

Additional observations from a re-analysis of the deposited data

How the results depend on the processing

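With each library left out, genes higher numbered 81 to 503 and genes lower 4 to 414 (366 and 50 with all libraries). The fewest were found without saline replicate 1, and the most without saline replicate 3. DESeq2 gave 616 higher and 197 lower, library totals alone 29 lower, log2 FPKM 24 lower with either pseudocount, FPKM without a filter 93 higher and 3 lower, and libraries numbered 1 and 2 alone 608 higher and 426 lower. The cause was not tested.

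No member passed under any of the 18 alternatives. The members' median ran from -0.19 to -0.02 with each library left out and was 0.10 in libraries numbered 1 and 2 alone. Of the mature oligodendrocyte genes 0 to 1 passed with each library left out, and 1 (Apod) with library totals alone, DESeq2, log2 FPKM with either pseudocount and libraries numbered 1 and 2 alone. Of the other sheath genes 1 (Cd9) passed in DESeq2 and 2 (Cd9 and Padi2) in libraries numbered 1 and 2 alone.

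Members changed sign as follows. With library totals alone Mag, Mobp and Opalin were each at 0.02 on the log2 scale, in the FPKM fits Mag was at 0.05, Mobp at 0.04 and Opalin at 0.03, and without a filter Mbp was at -0.00034. With each library left out Mbp ran from -0.06 to 0.13, Mag from -0.16 to 0.06, Mobp from -0.18 to 0.12 and Opalin from -0.17 to 0.09. In libraries numbered 1 and 2 alone Mag was at 0.10, Mobp at 0.19, Ermn at 0.10 and Opalin at 0.19. The median of all features was 0.06 with library totals alone, 0.06 in FPKM with a pseudocount of 1 and 0.08 with a pseudocount of 0.1.

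Same-numbered libraries deviated together with correlations of 0.0439, 0.107 and 0.203 for replicates 1, 2 and 3, and the numbers were not taken as pairs in the main fit. Collagenase replicates 2 and 3 each ran closest to the saline library of the same number, and collagenase replicate 1 to saline replicate 2. With the replicate block 252 genes were higher, 50 lower and 0 of the members passed. With 3 libraries per group an exact permutation test of a single value cannot go below p = 0.1.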

Other observations

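The deposited FPKM of a gene should be a fixed multiple of its count per library total when the length used is the same in each library. For 8 of the 9 members the ratio of count to FPKM, scaled by library, varied by at most 1.01-fold between libraries, but for Mag it varied by 1.09-fold, from 0.955 of the mean in collagenase replicate 1 to 1.04 in saline replicate 2. The log2 fold change of Mag was -0.06 from TMM-scaled counts, 0.02 from counts with library totals alone and 0.05 from FPKM. Mobp and Opalin, among the 8 with the steadier ratio, also moved, from -0.07 to 0.04 and from -0.08 to 0.03. The part of the length used in the value of Mag was not tested.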
